A study of Mus musculus with 19 samples.

Results

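The insulin, IGF and FoxO pathway was examined in mouse kidney through 10 genes: the ligand Igf1, the binding proteins Igfbp1, Igfbp3 and Igfbp5, the receptors Igf1r and Insr, the adaptors Irs1 and Irs2, and the transcription factors Foxo1 and Foxo3. The members were all probe sets that the array annotation assigns to 1 of these genes alone. A named probe set was found for 9 of the 10 genes, which gave 19 probe sets out of 45141 on the array, and 9 genes out of 17097. Irs2 had none in the annotation used and was not analysed here. Igf1 and Igf1r had 4 probe sets each, Insr and Foxo3 had 3 each, and the other 5 genes had 1 each.

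Kidneys of 19 male mice that had not undergone ischemia were measured, with 1 Affymetrix HT MG-430 PM array per mouse. Aged-overweight animals were F1 hybrids of the FVB-C57BL/6J cross with an average age of 73 weeks and a weight of about 47 g, of which 5 were fasted for 3 days with free access to water (mouse33, mouse38, mouse39, mouse41 and mouse42) and 5 were fed ad libitum (mouse34, mouse36, mouse37, mouse40 and mouse43). The young-lean mice were C57BL/6J animals of 10 to 14 weeks and 22 to 25 g, of which 4 were fasted for 3 days (mouse339, mouse340, mouse343 and mouse344) and 5 were fed ad libitum (mouse346 to mouse350). The labels name no transgene, and age, strain and body weight changed together between the aged and the young mice.

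Insulin and insulin-like growth factor 1 (IGF-1) bind related receptor tyrosine kinases, which phosphorylate the IRS adaptors and so activate the PI3K and AKT kinases. AKT phosphorylates the FoxO transcription factors and keeps them out of the nucleus, so that FoxO target genes are known to be switched on when insulin is low, as it is in fasting. The IGF binding proteins carry IGF-1 in the circulation and in tissues and limit or prolong its access to the receptor, and the kidney both receives circulating IGF-1 and makes some of its own.

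The study asked how the kidney responds to fasting before surgery, and here the question was which of these genes changed with fasting in each age and whether the changes differed between the ages. All levels below are deposited log2 values, and a difference of 1 on this scale is a doubling. Array medians lay between 3.46 and 3.49 in aged fasted, 3.44 and 3.48 in aged ad libitum fed, 4.18 and 4.21 in young fasted and 4.15 and 4.19 in young ad libitum fed mice, so that the diets were compared only within an age. The 7 of 10 kidney tubule and glomerulus markers with a named probe set averaged 9.99 to 10.36 in aged fasted, 10.14 to 10.39 in aged ad libitum fed, 10.22 to 10.39 in young fasted and 10.31 to 10.45 in young ad libitum fed mice, as fits kidney tissue. Aged fasted mouse33 stood apart, with a mean of 9.51 over 11 liver markers, against 5.08 to 5.43 in the other aged fasted and 4.93 to 6.10 in the aged ad libitum fed mice. Young fasted mouse339 was at 7.68, against 6.39 to 6.67 in the other young fasted and 5.90 to 6.74 in the young ad libitum fed mice. Of the 11 liver markers 0 passed between diets in aged mice, where 9.16% of all genes passed. In young fasted mice 3 were higher and 1 lower (36.4%, where 23.2% of all genes passed). Albumin (Alb) was at 12.58 in mouse33. Results that rest on mouse33 or mouse339 are therefore given without them as well. In whole kidney RNA, fewer cells of a type and less RNA per cell cannot be told apart.

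Igfbp1, Igfbp3 and Insr were higher in fasted mice of both ages, and in young kidneys Foxo3 was also higher and Igf1 and Igfbp5 were lower. A probe set passed at a limma p adjusted over all probe sets of at most 0.05, and was called when its fold change was also at least 1.5. In aged kidneys 4 of the 19 probe sets passed, all of them higher in fasted mice, where 6.48% of all probe sets passed (3.16% higher, 3.32% lower). These were Igfbp1, Igfbp3 and both Insr probe sets 1434446_PM_at and 1450225_PM_at, and only Igfbp1 was called, where 1.89% of all probe sets were (1.01% higher, 0.879% lower). In young kidneys 11 of the 19 passed, 5 of them higher and 6 lower in fasted mice, where 19.6% of all passed (10.1% higher, 9.54% lower). Here 3 were called, against 5.31% of all (2.63% higher, 2.68% lower): Igfbp1 and Insr were up-regulated and Igf1 was down-regulated. The values of the 2 diets were fully separated at 3 probe sets in aged kidneys, all higher in fasted mice, where 3.4% of all probe sets were separated in this direction and 3.84% in the other. In young kidneys 5 were separated with fasted mice higher and 4 with fasted mice lower, against 8.63% and 8.58% of all. At an unadjusted p under 0.05 there were 8 of 19 in aged kidneys, against 18.7% of all, and 12 of 19 in young kidneys, against 30.2% of all.

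**Figure D1:**
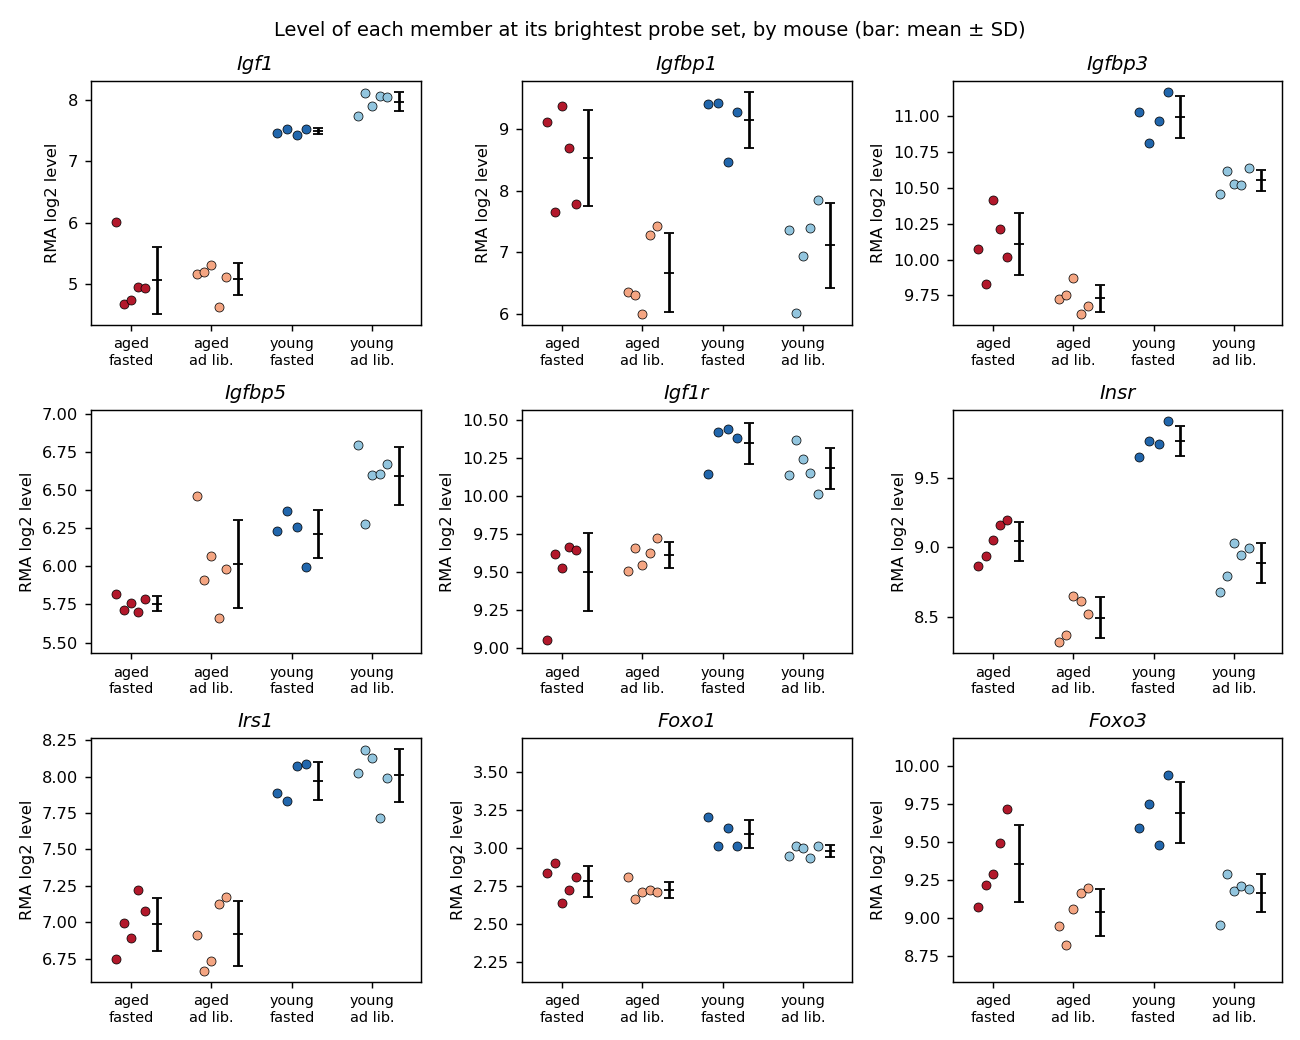
RMA log2 level of each of the 9 measured genes at its brightest probe set, with 1 point per mouse, grouped as aged fasted, aged ad libitum fed, young fasted and young ad libitum fed; bars give the mean ± SD of a group (n = 5, or 4 in young fasted). For Igfbp1 and Insr, every fasted mouse was above all ad libitum fed mice of its own age, in both ages. The highest Igf1 point of the aged mice is mouse33 at 6.01.

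Igf1 encodes IGF-1, the main growth-promoting ligand of the pathway, which is made mostly in liver and to a lesser degree in kidney and other tissues. It was down-regulated by fasting in young kidneys at all 4 probe sets. At the brightest, 1437401_PM_at, young fasted mice had 7.46, 7.53, 7.43 and 7.53, against 7.74, 8.12, 7.90, 8.06 and 8.05 in young ad libitum fed mice. The groups did not overlap, and the fasted mice lay close together. The log2 fold change was −0.48 ± 0.08 (SE, adjusted p = 0.00135), a ratio of 0.716 (95% confidence interval 0.635 to 0.808).

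The decrease of Igf1 in young kidneys was largest at 1419519_PM_at. Young fasted mice had 5.61, 5.40, 5.58 and 5.04 there, against 6.06, 6.25, 6.27, 6.55 and 6.52 in young ad libitum fed mice. This gave a log2 fold change of −0.92 ± 0.13 (adjusted p = 0.000541) and a ratio of 0.527 (95% confidence interval 0.431 to 0.644). The other Igf1 probe sets gave −0.57 ± 0.12 (1434413_PM_at, adjusted p = 0.00678) and −0.45 ± 0.12 (1452014_PM_a_at, adjusted p = 0.0248), again with no overlap. Leaving out 1 young mouse at a time kept 3 of the 4 probe sets past the threshold each time, while 1452014_PM_a_at passed in 5 of 9 such fits, with an adjusted p up to 0.0623. It missed the threshold without mouse340, mouse344, mouse349 or mouse350. Without mouse339 all 4 passed, with log2 fold changes of −0.47 to −0.99. In one fit of all 19 arrays the decrease at 1437401_PM_at did not pass (adjusted p = 0.0979).

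In aged kidneys no Igf1 probe set passed, and the mice of both diets overlapped. At 1437401_PM_at the aged fasted mice had 6.01, 4.67, 4.74, 4.95 and 4.93, against 5.17, 5.21, 5.30, 4.62 and 5.11 in aged ad libitum fed mice. The first of these fasted values is mouse33, which was the highest aged mouse at all 4 probe sets, with 6.01, 6.15, 6.42 and 4.25. With all mice the fold changes were −0.02, 0.03, 0.27 and −0.12 on the log2 scale (adjusted p = 0.974, 0.963, 0.772 and 0.827). Without mouse33 they were −0.26, −0.23, −0.16 and −0.31 (adjusted p = 0.297, 0.0979, 0.563 and 0.324), so that all 4 were below 0 and none passed. With the mean of the liver markers as a covariate in limma, the aged change at 1437401_PM_at was −0.20 ± 0.16 (adjusted p = 0.551). The part of liver transcripts in the Igf1 level of mouse33 itself was not tested.

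Some macrophage markers differed with diet, more of them in the young mice, and macrophages also express Igf1. The mean of 8 such markers was 5.34 to 5.47 in young fasted and 5.65 to 6.00 in young ad libitum fed mice. Of the 8, 4 were lower and 1 higher past the threshold (62.5%, where 23.2% of all genes passed). In aged mice this mean was 5.20 to 5.81 in fasted and 5.21 to 5.87 in ad libitum fed animals, with 1 of the 8 lower and 1 higher (25.0%, where 9.16% of all genes passed). Csf1r was lower in both ages (−0.51 in aged and −0.54 in young kidneys), and Cd14 was higher in both (0.79 in aged and 0.35 in young kidneys). The part of these markers in the Igf1 result was not tested.

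Igfbp1 encodes a binding protein that is known in liver as a classical insulin-repressed gene and a FoxO target. It had the largest change of all members in both ages. Aged fasted mice had 9.12, 7.66, 9.38, 8.69 and 7.79, against 6.35, 6.30, 6.00, 7.28 and 7.42 in aged ad libitum fed mice. Young fasted mice had 9.41, 9.42, 8.47 and 9.29, against 7.37, 6.02, 6.94, 7.39 and 7.84 in young ad libitum fed mice. In each age the lowest fasted mouse was above the highest ad libitum fed mouse, but the gap was narrow in the aged mice, between mouse38 at 7.66 and mouse43 at 7.42.

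The log2 fold change of Igfbp1 was 1.86 ± 0.36 in aged kidneys (SE, adjusted p = 0.00855) and 2.03 ± 0.32 in young kidneys (adjusted p = 0.00103). These correspond to a ratio of 3.63 in aged (95% confidence interval 2.10 to 6.26) and 4.10 in young kidneys (2.52 to 6.67). The SD of a group was 0.78 in aged fasted, 0.64 in aged ad libitum fed, 0.46 in young fasted and 0.69 in young ad libitum fed mice. Each was wider than for any other brightest probe set of the members in the same group. The call held with any 1 mouse left out, but in aged kidneys it was lost with an unmoderated test (adjusted p = 0.0630). The fold change without mouse33 was 1.71 (adjusted p = 0.0177). Without mouse339 it was 1.95 (adjusted p = 0.00383).

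The promoter of Igfbp1 is shown because insulin response sequences upstream of this gene are the textbook site at which FoxO factors act on it. RefSeq promoter windows of 300 bases (GRCm38.p6, 250 before and 50 after the start) matched 9 of the 10 members, all but Insr, and were searched on both strands for 2 motifs. These were the FoxO core, GTAAACA, and the core of the insulin response sequence, CAAAACA. The first occurred in 3.65% of 32851 such windows. The second occurred in 6.28% of them. Igfbp1 had 1 CAAAACA, at positions −108 to −102 from the start. Irs1 had 2 matches and Irs2 had 1, all on the other strand, and the other 6 windows had none. GTAAACA was found in no member window, so the motifs did not overlap. The 250 bases before the start of Igfbp1 (chr11:7197537-7197786, plus strand) and 37 bases around each match in Irs1 (chr1:82291529-82291565 and chr1:82291450-82291486, minus strand) and Irs2 (chr8:11008945-11008981, minus strand) follow, read on the strand of the gene, with the match in capitals.
Igfbp1: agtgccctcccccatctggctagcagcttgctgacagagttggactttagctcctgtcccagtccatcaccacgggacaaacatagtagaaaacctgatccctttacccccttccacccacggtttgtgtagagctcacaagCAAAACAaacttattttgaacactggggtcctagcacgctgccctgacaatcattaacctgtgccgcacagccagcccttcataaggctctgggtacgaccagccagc
Irs1, upstream match: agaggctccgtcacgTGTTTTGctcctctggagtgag
Irs1, downstream match: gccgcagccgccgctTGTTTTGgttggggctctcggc
Irs2: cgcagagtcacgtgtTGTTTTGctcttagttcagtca
The match is a description of these letters and says nothing about binding. Igfbp1 rose with fasting and has a match, Irs1 has 2 and did not pass, and Insr, which rose, had no window to search.

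The genes whose pattern over the 19 arrays was most like that of Igfbp1, among 11794 compared, were Kcnip2, Bbox1 and 2410006H16Rik. Likeness was measured as the root mean square difference of the log2 level, each gene taken relative to the ad libitum fed mice of the same age, and was 0.56 for all 3. Bbox1 encodes the enzyme of the last step of carnitine synthesis and rose by 1.49 in aged and 1.66 in young kidneys on the log2 scale. Kcnip2, a potassium channel-interacting protein, rose by 1.91 in aged and 1.70 in young kidneys (adjusted p at most 0.00448 for both genes and both ages).

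Igfbp3, the main carrier of IGF-1 in the circulation, was up-regulated by a smaller amount. In young kidneys the fasted mice had 11.03, 10.81, 10.97 and 11.16, against 10.45, 10.62, 10.53, 10.52 and 10.63 in young ad libitum fed mice, with no overlap. The log2 fold change was 0.44 ± 0.08 (adjusted p = 0.00170), a ratio of 1.36, and it passed with any 1 mouse left out. Aged fasted mice had 10.07, 9.83, 10.41, 10.21 and 10.02, against 9.72, 9.75, 9.87, 9.62 and 9.68 in aged ad libitum fed mice. The groups overlapped only through mouse38 and mouse37. The change of 0.38 ± 0.10 in aged kidneys passed (adjusted p = 0.0418, ratio 1.30), but in only 1 of 10 fits with 1 mouse left out, that without mouse38. The adjusted p of the other 9 fits reached 0.109, and that without mouse33 was 0.0581.

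Igfbp5, a binding protein that is retained in the extracellular matrix, went the other way. The young fasted mice had 6.23, 6.37, 6.26 and 6.00, against 6.80, 6.28, 6.60, 6.61 and 6.67 in young ad libitum fed mice. The groups overlapped only through mouse347 at 6.28. The log2 fold change of −0.38 ± 0.10 passed in young kidneys (adjusted p = 0.0252), but not without mouse344, mouse346, mouse348 or mouse350 (adjusted p = 0.0536 to 0.0765). In aged kidneys the fasted mice lay closely together, from 5.70 to 5.82, within the range of 5.66 to 6.46 of the ad libitum fed mice. The change of −0.26 ± 0.12 did not pass (adjusted p = 0.256).

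**Figure D2:**
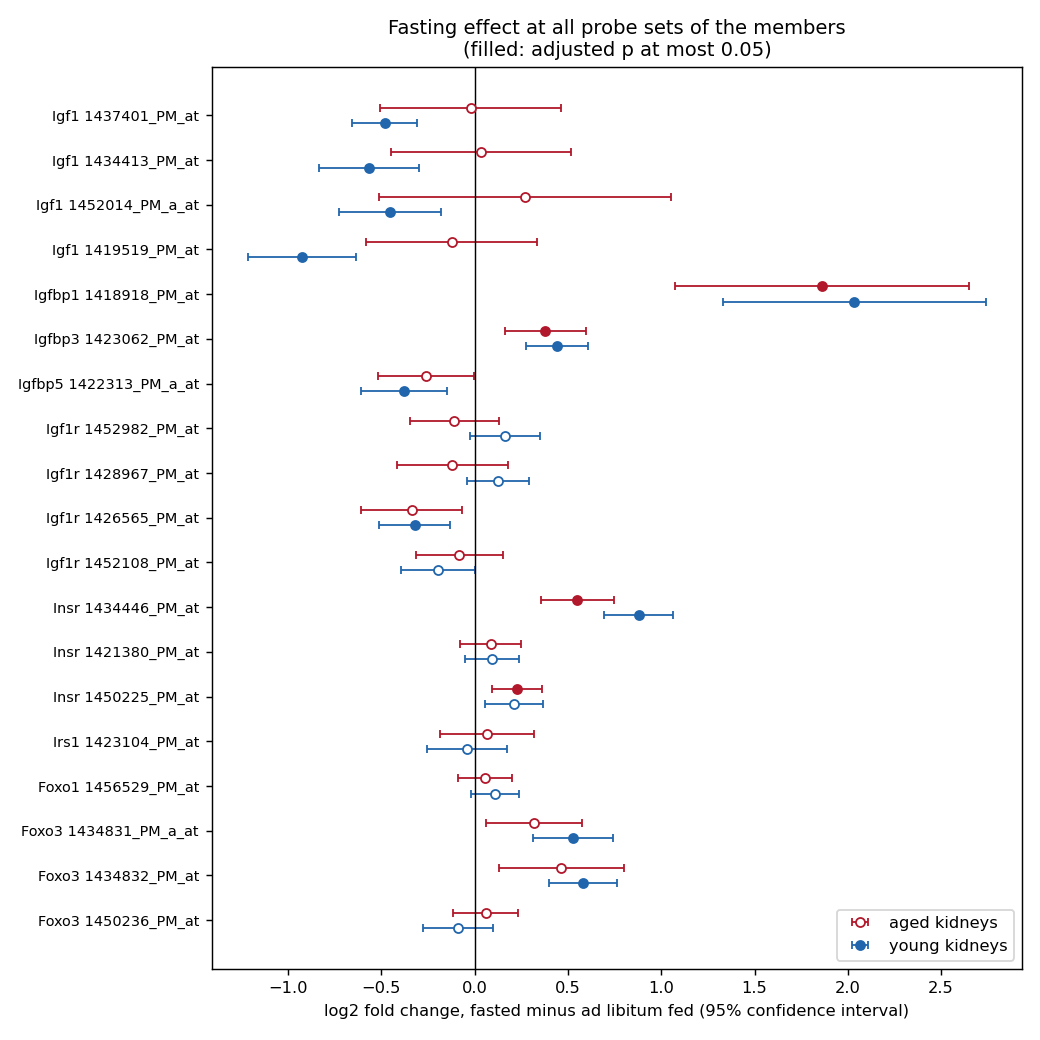
log2 fold change, fasted minus ad libitum fed, with its 95% confidence interval at all 19 probe sets of the members, in aged kidneys (red, above) and young kidneys (blue, below); filled points had an adjusted p of at most 0.05. Igfbp1 lies farthest to the right in both ages (1.86 and 2.03), and the intervals of the 4 Igf1 probe sets lie wholly left of 0 in young kidneys, while they span 0 in aged kidneys.

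Insr encodes the insulin receptor, and the gene is itself known as a FoxO target in several cell types. At its brightest probe set, 1434446_PM_at, aged fasted mice had 8.86, 8.94, 9.05, 9.16 and 9.20, against 8.32, 8.37, 8.65, 8.61 and 8.52 in aged ad libitum fed mice. Young fasted mice had 9.65, 9.77, 9.74 and 9.91, against 8.68, 8.79, 9.03, 8.94 and 8.99 in young ad libitum fed mice. All fasted mice were above all ad libitum fed mice of their age. The log2 fold change was 0.55 ± 0.09 in aged kidneys (adjusted p = 0.00304) and 0.88 ± 0.08 in young kidneys (adjusted p = 3.34e-05). The ratio was 1.46 in aged (95% confidence interval 1.28 to 1.68), just under the fold minimum, and 1.84 in young kidneys (1.62 to 2.09). Both passed with any 1 mouse left out, and the aged change was 0.59 without mouse33.

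The other Insr probe sets were dim. 1450225_PM_at, at the 32.1 percentile of all mean levels, was higher by 0.23 ± 0.06 in aged kidneys (adjusted p = 0.0471) and had a difference of 0.21 ± 0.07 in young kidneys (adjusted p = 0.0567). Its aged result passed only in the fits without mouse33 or mouse40 when 1 mouse was left out. 1421380_PM_at, at the 44.2 percentile, had differences of 0.09 in aged and 0.09 in young kidneys (adjusted p = 0.620 in aged and 0.417 in young).

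Igf1r encodes the IGF-1 receptor, and its 4 probe sets did not move together. At the brightest, 1452982_PM_at, aged fasted mice had 9.05, 9.62, 9.53, 9.67 and 9.65, against 9.51, 9.66, 9.55, 9.63 and 9.72 in aged ad libitum fed mice. In young kidneys the fasted mice had 10.15, 10.42, 10.44 and 10.38, against 10.14, 10.37, 10.24, 10.15 and 10.01 in young ad libitum fed mice. The groups overlapped in both ages, with differences of −0.11 ± 0.11 in aged (adjusted p = 0.679, ratio interval 0.786 to 1.09) and 0.16 ± 0.08 in young kidneys (adjusted p = 0.229, ratio interval 0.984 to 1.27). The lowest aged value is mouse33, which was lowest of the aged mice at all 4 probe sets, with 9.05, 9.01, 7.79 and 2.86. Without it the aged differences were 0.00, 0.01, −0.23 and −0.01. With the mean of the liver markers as a covariate in limma, the aged difference at 1452982_PM_at was −0.01 ± 0.07 (adjusted p = 0.957). The part of liver transcripts in the values of mouse33 itself was not tested.

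A decrease of Igf1r passed only at 1426565_PM_at in young kidneys. Young fasted mice had 7.16, 7.28, 7.07 and 7.38 there, against 7.59, 7.75, 7.49, 7.38 and 7.51 in young ad libitum fed mice, so that 1 mouse of each diet met at 7.38. The log2 fold change was −0.32 ± 0.09 (adjusted p = 0.0223), and it passed in 7 of 9 fits with 1 mouse left out, not without mouse339 or mouse343 (adjusted p = 0.0566 without mouse339). In aged kidneys the same probe set gave −0.34 ± 0.12 (adjusted p = 0.152). Because the other probe sets of Igf1r in young kidneys had values of 0.16, 0.12 and −0.20 that did not pass, no direction can be given for the gene.

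Irs1, the adaptor that links the receptors to PI3K, showed no detectable change. Aged fasted mice had 6.74, 6.998, 6.89, 7.22 and 7.08, against 6.91, 6.67, 6.73, 7.13 and 7.17 in aged ad libitum fed mice. The young fasted mice had 7.89, 7.83, 8.07 and 8.08, against 8.02, 8.18, 8.12, 7.71 and 7.99 in young ad libitum fed mice. The groups overlapped almost completely. The differences were 0.06 ± 0.12 in aged (adjusted p = 0.838, ratio interval 0.878 to 1.25) and −0.04 ± 0.10 in young kidneys (adjusted p = 0.847, ratio interval 0.839 to 1.13). These intervals give the changes that the data allow, and do not mark the smallest change that would have passed.

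Foxo3, 1 of the FoxO factors that AKT inactivates, was up-regulated in young kidneys. At 1434831_PM_a_at young fasted mice had 9.59, 9.75, 9.48 and 9.94, against 8.95, 9.29, 9.18, 9.22 and 9.19 in young ad libitum fed mice. At 1434832_PM_at they had 8.15, 8.33, 8.10 and 8.45, against 7.63, 7.64, 7.84, 7.69 and 7.60 in the ad libitum fed mice. Neither pair of groups overlapped, and the log2 fold changes were 0.53 ± 0.10 (adjusted p = 0.00284, ratio 1.44) and 0.58 ± 0.08 (adjusted p = 0.000532). Both passed with any 1 young mouse left out.

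Aged kidneys had Foxo3 differences of the same sign that did not pass. At 1434831_PM_a_at aged fasted mice had 9.07, 9.22, 9.29, 9.50 and 9.71, against 8.95, 8.82, 9.06, 9.16 and 9.20 in aged ad libitum fed mice, with a difference of 0.32 ± 0.12 (adjusted p = 0.151). At 1434832_PM_at they had 7.68, 8.03, 7.85, 8.37 and 8.46, against 7.48, 7.53, 7.48, 7.55 and 8.01 in the ad libitum fed mice, with a difference of 0.46 ± 0.15 (adjusted p = 0.106). The overlap at the second probe set came from mouse43, an ad libitum fed mouse at 8.01 against 7.55 in the next. That probe set passed in 2 of 10 fits with 1 mouse left out, without mouse43 or without mouse33 (0.56 ± 0.14, adjusted p = 0.0372 without mouse33). The third Foxo3 probe set, 1450236_PM_at, was dim and did not pass in either age.

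Foxo1 was measured by a single dim probe set, at the 19.2 percentile of mean levels, with values of 2.64 to 2.90 in aged fasted, 2.66 to 2.81 in aged ad libitum fed, 3.01 to 3.20 in young fasted and 2.94 to 3.01 in young ad libitum fed mice. On 6 of the arrays its value was also that of another array. The differences of 0.06 ± 0.07 in aged (adjusted p = 0.731) and 0.11 ± 0.06 in young kidneys (adjusted p = 0.252) did not pass, and at this signal a change of Foxo1 could not be detected reliably.

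**Figure D3:**
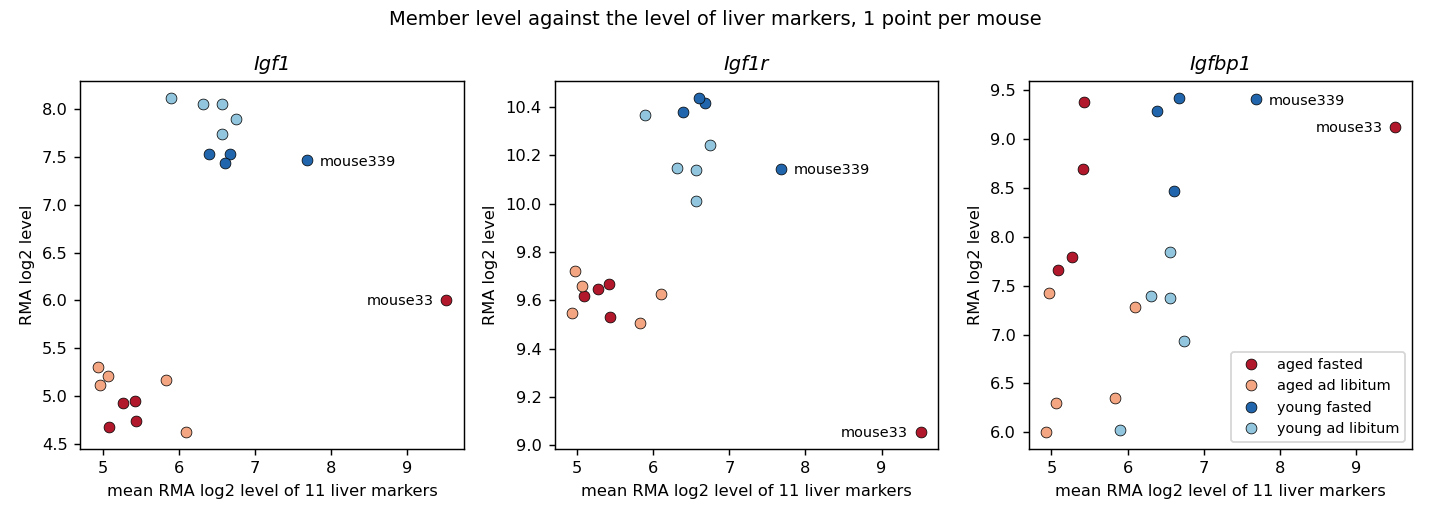
RMA log2 level of Igf1, Igf1r and Igfbp1 at their brightest probe sets (vertical) against the mean RMA log2 level of 11 liver markers (horizontal), with 1 point per mouse coloured by group. Mouse33 lies alone at 9.51 on the horizontal axis, with the highest Igf1 (6.01) and the lowest Igf1r (9.05) of the aged mice, while its Igfbp1 (9.12) lies among the other aged fasted mice.

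The fasting effect of no member differed between the ages past the threshold. Of the 19 probe sets 0 passed the limma interaction test (aged effect minus young effect), where 1.95% of all probe sets passed (1.21% higher, 0.747% lower), and 3 had an unadjusted p under 0.05, where 13.6% of all did. These 3 were Insr 1434446_PM_at, with a difference of −0.33 ± 0.13 (adjusted p = 0.223), and Igf1 1419519_PM_at and 1434413_PM_at, with 0.80 ± 0.28 (adjusted p = 0.158) and 0.60 ± 0.28 (adjusted p = 0.357). For Igfbp1 the effects of the ages differed by −0.17 ± 0.53 (adjusted p = 0.940, 95% confidence interval −1.28 to 0.93), an interval wide enough to hold differences of over 1.5-fold either way. The Igf1 decrease that passed in young and not in aged kidneys was therefore not shown to differ between the ages. Of the genes taken at their brightest probe set, 0 of 9 members passed, where 2.44% of all genes did. With 1 array left out, the Igf1 difference ran from 0.61 to 0.99 at 1419519_PM_at and from 0.33 to 0.68 at 1434413_PM_at. At both probe sets it was smallest without mouse33, and did not pass there. Without aged fasted mouse39, 1419519_PM_at alone passed (adjusted p = 0.0301).

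Around the members, 94 of 107 genes written into 7 pathway lists had a named probe set. In aged kidneys 14 of these 94 were higher and 7 lower in fasted mice, or 22.3%, where 9.16% of all genes passed at their brightest probe set. In young kidneys 25 were higher and 13 lower, or 40.4%, where 23.2% of all genes passed. Without the members, 11 higher and 7 lower remained among 85 genes in aged kidneys, and 21 higher and 11 lower in young kidneys. The lists were chosen with earlier results of these data known, so the counts describe them and test nothing.

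Known FoxO targets, taken from work in liver, muscle and other cells, had the highest share of genes that passed. Of 22 measured, 9 were higher and 2 lower in aged fasted kidneys, and 13 higher and 3 lower in young fasted kidneys. The members Igfbp1 and Insr belong to this list and are counted as higher in both ages, so these counts partly repeat the member results. Where all genes are counted, 4.32% were higher and 4.84% lower in aged, and 10.7% higher and 12.5% lower in young kidneys. The median log2 difference of the 22 was 0.32 in aged and 0.38 in young kidneys, against −0.01 in both ages for all genes. Leaving out mouse33 gave 7 higher and 1 lower in aged kidneys, and leaving out mouse339 gave 12 higher and 2 lower in young kidneys.

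Pdk4, the kinase that inhibits pyruvate dehydrogenase, rose by 2.51 ± 0.40 in aged (adjusted p = 0.00244) and 3.07 ± 0.15 in young kidneys (adjusted p = 4.25e-07). Its levels were 8.43 to 9.88 in aged fasted kidneys against 5.27 to 7.38 in aged ad libitum fed kidneys, and 9.33 to 10.25 in young fasted kidneys against 6.54 to 6.77 in young ad libitum fed kidneys. Bnip3, a mitophagy receptor, rose by 0.52 in aged and 0.81 in young kidneys, and Txnip, a thioredoxin-binding inhibitor of glucose uptake, rose by 0.87 in aged and 1.07 in young kidneys (each passed in both ages). Trim63, a ubiquitin ligase that FoxO factors activate in wasting muscle, was lower in the fasted kidneys, with −1.17 ± 0.14 in aged (adjusted p = 0.000262) and −0.93 ± 0.10 in young kidneys (adjusted p = 9.74e-05). G6pc, the glucose-6-phosphatase of gluconeogenesis, was lower in young fasted kidneys (−0.44, adjusted p = 0.0455), and Selenop, a selenium transport protein, was lower in both ages (−0.25 in aged and −0.22 in young).

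**Figure D4:**
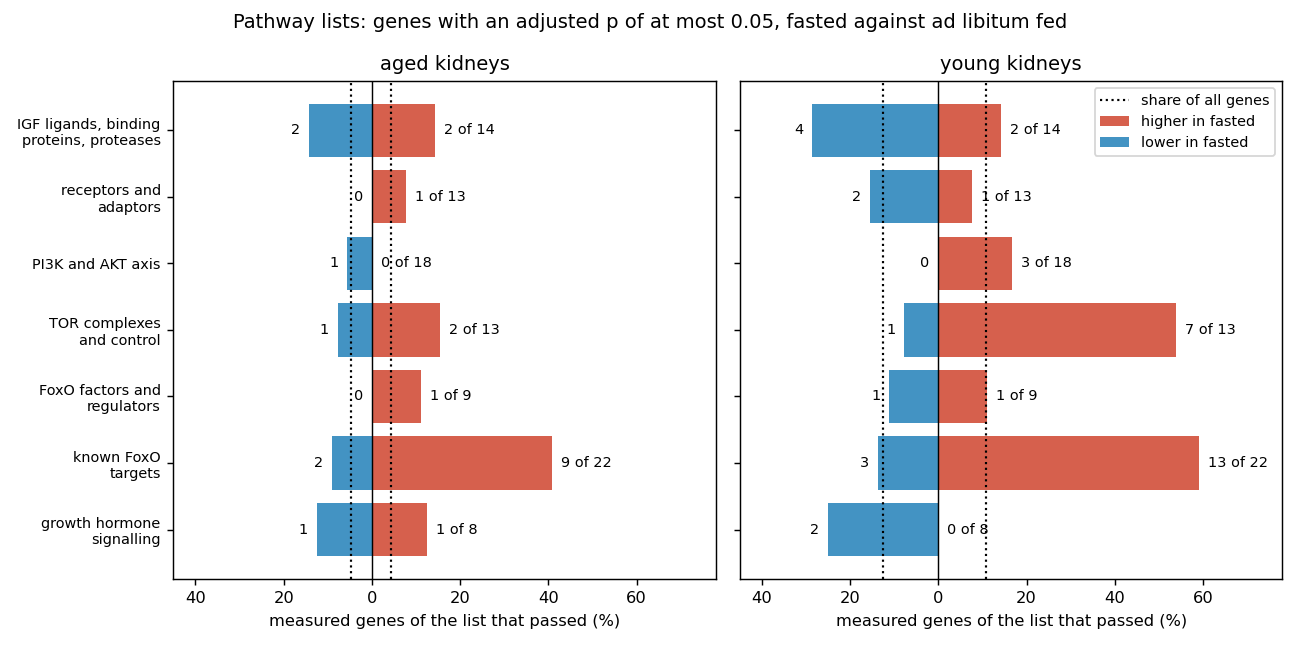
Share (%) of the measured genes of each of 7 pathway lists that passed, higher in fasted mice to the right (red) and lower to the left (blue), in aged and young kidneys, with the counts printed beside the bars; dotted lines give the share of all genes. The bars for known FoxO targets are the longest to the right in both ages (9 of 22 and 13 of 22, the members Igfbp1 and Insr included), followed in young kidneys by the TOR list (7 of 13).

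Genes of the TOR complexes and their control, which act downstream of AKT and sense nutrients, had the second highest share of the lists in young kidneys. There 61.5% passed, against 23.2% of all genes. In aged kidneys their share was not the second highest, and 23.1% passed, against 9.16% of all genes. In young fasted kidneys 7 of 13 were higher and 1 lower, and in aged fasted kidneys 2 were higher and 1 lower. Leaving out mouse339 gave 5 higher and 1 lower in young kidneys. Mtor, the kinase of both complexes, was the gene that was lower in either age, with −0.66 ± 0.09 in aged (adjusted p = 0.000938) and −0.56 ± 0.09 in young kidneys (adjusted p = 0.00121). Deptor, an inhibitor bound to the kinase, rose by 0.33 in aged and 0.44 in young kidneys. Eif4ebp1, a repressor of translation that TOR inactivates, rose by 1.09 ± 0.08 in young kidneys (adjusted p = 6.91e-06). The other genes that were higher in young kidneys were Eif4ebp2 (0.39), of the same kind, and, named after their values were seen, Ddit4 (0.60), Sesn1 (0.33) and Sesn2 (0.40), which are known inhibitors of the first TOR complex, and Rictor (0.25), a subunit of the second. Rictor was also higher in aged kidneys (0.32, adjusted p = 0.0384).

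Among 14 measured IGF ligands, binding proteins and proteases, members included, 2 were higher and 2 lower in aged fasted kidneys, and 2 higher and 4 lower in young fasted kidneys. The share that passed was 28.6% in aged and 42.9% in young kidneys, against 9.16% and 23.2% of all genes. The genes that were higher were the members Igfbp1 and Igfbp3 in both ages, and the members Igf1 and Igfbp5 were among the lower ones in young kidneys. Apart from the members, Igfbp4 was lower by −0.25 in aged (adjusted p = 0.0231) and −0.48 in young kidneys (adjusted p = 0.00508). Ide, the insulin-degrading enzyme, was lower by −0.27 in aged (adjusted p = 0.0212) and −0.26 in young kidneys (adjusted p = 0.0116). Of 13 receptors and adaptors, the share that passed was 7.69% in aged and 23.1% in young kidneys, no higher than the 9.16% and 23.2% of all genes. Insr was the 1 that passed in aged kidneys. In young kidneys the adaptor Grb2 (−0.30) and the insulin receptor-related receptor Insrr (−0.42) were lower besides the rise of Insr, and without mouse339 1 of these 13 genes was lower.

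Of 18 genes of the PI3K and AKT axis 5.56% passed in aged and 16.7% in young kidneys, against 9.16% and 23.2% of all genes. In aged kidneys only the regulatory subunit Pik3r2 passed, and was lower (−0.35, adjusted p = 0.0220). In young kidneys 3 were higher and 0 lower: the AKT-binding pseudokinase Trib3 (0.80), the phosphoinositide phosphatase Inpp5k (0.69) and the kinase Sgk1 (0.61). Of 9 FoxO factors and regulators 11.1% passed in aged and 22.2% in young kidneys, close to the shares of all genes. The deacetylase Sirt1 was higher in aged kidneys (0.38), and in young kidneys Foxo3 was higher and the kinase Stk4 lower (−0.34). Of 8 genes of growth hormone signalling, which drives Igf1 transcription in liver, 25.0% passed in each age, against 9.16% of all genes in aged and 23.2% in young kidneys. The receptor Ghr was lower in both ages, by −0.28 in aged (adjusted p = 0.0446) and −0.37 in young kidneys (adjusted p = 0.00165). Without mouse33 no gene of this list was lower in aged kidneys. Stat5a, which carries the growth hormone signal to the nucleus, was lower in young kidneys (−0.51), and Cish, an inhibitor of that signal, was higher in aged kidneys (1.39, adjusted p = 0.00732).

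Some fat markers also differed with diet in the young mice, but the means of both fat marker lists varied between mice and overlapped between the diets. The mean of 7 brown adipocyte markers was 6.26, 5.57, 5.91 and 4.69 in young fasted mice and 4.71 to 4.98 in young ad libitum fed mice. Of the 7, 4 were higher and 1 lower (71.4%, where 23.2% of all genes passed). In aged mice it was 4.57 to 5.98 in fasted and 4.82 to 6.38 in ad libitum fed animals. The mean of 5 adipocyte markers was 5.29 to 7.24 in young fasted and 5.74 to 6.28 in young ad libitum fed mice. Of the 5, 1 was higher (20.0%, where 23.2% of all genes passed). With the brown adipocyte mean as a covariate, Igfbp5 in young kidneys no longer passed (−0.46, adjusted p = 0.0662), while the other members kept their side of the threshold at their brightest probe sets. The mean of 8 endothelial markers was 6.98 to 7.41 in aged fasted mice. In aged ad libitum fed mice it was 6.50 in mouse40 and 7.003 to 7.17 in the others. Mouse40 also had the lowest Igf1 of its group at 1437401_PM_at, but at no other Igf1 probe set. At 1452014_PM_a_at it had the highest of its group (4.83). The endothelial mean was 7.55 to 7.87 in young fasted and 7.65 to 7.79 in young ad libitum fed mice. Of the 8 markers 2, Kdr and Ehd3, were lower in young fasted mice. This was 25.0%, near the 23.2% of all genes that passed in young kidneys. The part of endothelial transcripts in the Igf1 value of mouse40 was not tested. Adrenal cortex markers averaged 3.05 to 3.13 in aged fasted, 3.06 to 3.22 in aged ad libitum fed, 3.40 to 3.42 in young fasted and 3.37 to 3.46 in young ad libitum fed mice.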

How the data were processed

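Total RNA of frozen kidney was labelled and measured on HT MG-430 PM plates. The authors applied RMA (background correction and normalization, with no version given in the sources used here); the values they deposited are log2 levels of 45141 probe sets. Since array medians differ by age but hardly within an age, each age was probably normalized by itself.

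The log2 values were tested with limma 3.58.1 in R 4.3.3, separately for aged and young arrays, and the difference between the fasting effects in one fit of 4 groups. P-values were adjusted by Benjamini-Hochberg over all probe sets, on the scale of 1 array per mouse, and the number of arrays limits the precision. The scripts were tested on simulated data. The annotation gave 1 gene for 28898 probe sets, several for 551 and listed none for 15692. A gene was taken at its probe set with the highest mean level. The members, lists and tests were chosen with earlier results of these data known. Named genes are all members and, per list, age and direction, up to 3 with the smallest adjusted p. Likeness used genes above the lowest 40% of mean levels. Alternatives were an unmoderated test, other arrays, weights, priors, normalizations, filters, covariates and thresholds, 1 probe set or the mean per gene, and 1 array left out. The authors' qPCR was not analysed here.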

Additional observations from a re-analysis of the deposited data

Results flagged for a closer look

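Several single mice lay far from the rest of their group. Such a gap was looked for in 84 sets of values, and chance alone marks about 1 in 20. Aged fasted mouse33 had the highest Igf1 of its group, with 6.01 at 1437401_PM_at (next 4.95), 6.15 at 1434413_PM_at (next 4.91) and 6.42 at 1452014_PM_a_at (next 4.47). It had the lowest Igf1r, with 9.05 at 1452982_PM_at (next 9.53) and 9.01 at 1428967_PM_at (next 9.61). Its mean liver marker level was 9.51, against 5.43 in the next aged fasted mouse, and the part of liver transcripts in its Igf1 and Igf1r values was not tested. Aged ad libitum fed mouse40 had the lowest Igf1 at 1437401_PM_at, 4.62 against 5.11 in the next mouse, but the highest of its group at 1452014_PM_a_at (4.83). Young fasted mouse343 had the lowest Igfbp1, 8.47 against 9.29. Aged ad libitum fed mouse43 had the highest Foxo3 at 1434832_PM_at, 8.01 against 7.55.

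The fasting effect differed between the ages past the threshold for 5 genes of the pathway lists, none of them a member, where 2.44% of all genes did (limma interaction test, aged effect minus young effect). Trib3 differed by −0.82 (adjusted p = 0.0164), with an effect of −0.02 in aged and 0.80 in young kidneys. Eif4ebp1 differed by −0.76 (adjusted p = 0.00735), with 0.34 in aged and 1.09 in young kidneys, and Eif4ebp2 by −0.44 (adjusted p = 0.0325), with −0.05 in aged and 0.39 in young kidneys. Gadd45a, a growth arrest gene, differed by −0.91 (adjusted p = 0.0188), with 0.00 in aged and 0.91 in young kidneys. Ccng2, a cyclin of arrested cells, differed by 0.49 (adjusted p = 0.0294), with 0.38 in aged and −0.11 in young kidneys.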

How the results depend on the processing

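Of the 19 probe sets of the members, 4 passed in aged kidneys, against 2 with an unmoderated test, 2 at a threshold of 0.01 for the adjusted p, 1 with the fold minimum, and 2 to 4 with 1 array left out (2 without mouse34, mouse36, mouse37, mouse39, mouse41 or mouse42). In young kidneys 11 passed, against 3 with the fold minimum, 6 of 9 genes with 1 probe set per gene, 6 of 9 with the mean of the probe sets, and 9 to 11 with 1 array left out. The difference between the ages passed at 0 probe sets by limma and at 0 to 1 with 1 array left out.

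At the brightest probe sets, values that did not pass changed sign for Igf1 in aged kidneys (0.0383 with the mean of its probe sets, −0.259 to 0.0747 with 1 array left out) and Igf1r (−0.0579 in young with the mean, −0.150 to 0.0034 in aged with 1 array left out). Irs1 in young kidneys gave 0.0033 with the liver markers and 0.0335 with the brown adipocyte markers as covariate, the second chosen after seeing the data, and −0.114 to 0.0059 with 1 array left out. The difference between the ages ran from −0.401 to 0.0993 for Igfbp1 and from −0.139 to 0.0068 for Igfbp3, with 1 array left out. An unmoderated test left Igfbp1 in aged (adjusted p = 0.0630), Igfbp3 in aged (0.100) and Igfbp5 in young kidneys (0.0839) short of the threshold, and all arrays in one fit did so for Igf1 in young kidneys (0.0979). With liver markers as covariate Igf1r in young kidneys passed (0.26, adjusted p = 0.0447). The cause of these changes was not tested. The paper describes matching of mice in pairs by body weight and sex, but the sample labels give no pairs, so no paired analysis was possible. Dim probe sets of Foxo1, Insr, Igf1r and Foxo3 limit what can be seen there.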

Other observations

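Between the ad libitum fed mice, the level of Igf1 was lower in aged than in young kidneys by more than most of the array. The aged minus young difference was −2.89 at 1437401_PM_at, −2.88 at 1434413_PM_at, −2.71 at 1419519_PM_at and −1.44 at 1452014_PM_a_at on the log2 scale, against a median of −0.45 over all probe sets. The first of these probe sets lay at the 64.0 to 68.3 percentile of its array in aged ad libitum fed and at the 83.3 to 85.7 percentile in young ad libitum fed mice. For Igf1r, 1426565_PM_at was higher in aged mice by 1.00, at the 99.4 percentile of all differences, while the other 3 probe sets were lower by 0.26 to 0.64. Age, strain, weight and a possible separate normalization of each age cannot be told apart in these values, and no test was made of them.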
